A study of Homo sapiens with 6 samples.

Results

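The genes described here are the subunits, activators, inhibitor and assembly chaperones of the proteasome. They were taken from the gene table by symbol, as PSMA, PSMB, PSMC, PSMD, PSME, PSMF or PSMG followed by a number, with POMP and ADRM1 added and the immune subunits PSMB8 and PSMB9 left out. This gave 48 genes of the 36459 in the table, of which 17 belong to the core particle, 18 to the regulatory particle, 4 to the activators, 1 to the inhibitor and 8 to the assembly chaperones. PSMA8, the alpha subunit of the testis, and PSMB11, the beta subunit of the thymus, had a count of 0 in all 6 libraries, which by counting error alone allows up to 3 counts in a library. The other 46 genes passed the filter on low counts and were tested.

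The proteasome is the large protease that degrades most short-lived and damaged proteins of the cell. Proteins are marked for it by chains of ubiquitin, are recognised and unfolded by a regulatory particle, and are threaded into a hollow core particle whose inner rings hold the cutting sites. The core is built from an alpha ring, which forms the gate, and a beta ring, which carries the catalytic subunits. Other caps, called activators, can open the gate without the regulatory particle, and dedicated chaperones assemble core and base. Cells with too little proteasome activity raise the genes of the subunits through the transcription factor NRF1, encoded by NFE2L1.

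Poly-A RNA was measured in PC9, an EGFR-mutant line of human non-small cell lung cancer (NSCLC), and in the persister cells (PS) derived from it. PC9 replicates 1 to 3 were parental cells, with no drug treatment named in their labels, and PS replicates 1 to 3 were the cells that survived 6 days in erlotinib, an inhibitor of the EGF receptor kinase, at 15 µM. All libraries came from this 1 line, and per the study's description of its samples the 3 PS libraries were pools of 9 cultures, while PC9 came from 3 cultures. The question put to the data was which pathways differ between the persister and the parental state. Libraries held 29476725 to 34893782 estimated counts, and the 48 genes took 0.527% to 0.539% of them in PC9 and 0.614% to 0.622% in PS. All 6 epithelial markers fixed for this work (EPCAM, KRT7, KRT8, KRT18, KRT19 and CDH1) were present, with group means of 207 to 2725 CPM (a count scaled to the same total in every library), 4 of them lower and 2 higher in PS. Of 9 leukocyte, fibroblast and endothelial markers, CD3E and COL3A1 were at 0 and the other leukocyte markers stayed at or below 0.538 CPM and DCN and VWF at or below 0.352 CPM, whereas COL1A1 rose from 10.2 to 28.3 CPM and PECAM1 fell from 4.37 to 0.214 CPM in the group means; the part of these changes in the results was not tested. CPM is a share of each library after TMM scaling, so a gene's value is relative to all other mRNAs and does not measure mRNA per cell. In such bulk samples fewer cells of a kind and less RNA per cell cannot be told apart.

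Proteasome genes were mostly higher in PS, above all those of the regulatory particle. There, 15 of 18 genes were higher in PS and 0 were lower at an adjusted p under 0.01. SEM1, a small lid subunit that the choice by symbol left out, was lower, and with it the counts were 15 higher and 1 lower of 19. In the core particle 7 of 15 tested genes were higher, 1 was lower and 7 were not called. Among the activators PSME3 and PSME4 rose and PSME1 fell. Across all tested members 28 were higher, 5 were lower and 13 were not called, beside 28.7% of all 14626 tested genes called higher and 28.1% called lower by edgeR's quasi-likelihood test. The median log2 fold change, PS over PC9, was 0.23 over the 46 genes, 0.36 over the regulatory particle, 0.083 over the core particle and -0.0061 over all genes tested. The core median was 0.040 with upper-quartile scaling and 0.030 with library size only. It stayed 0.089 above the median of all genes in each of these fits. A change of scaling shifts all genes by about the same amount, so this gap had to stay and is no separate support. The PC9 and PS libraries did not overlap for 38 of the 46 genes, beside 71.3% of all genes tested.

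**Figure D1:**
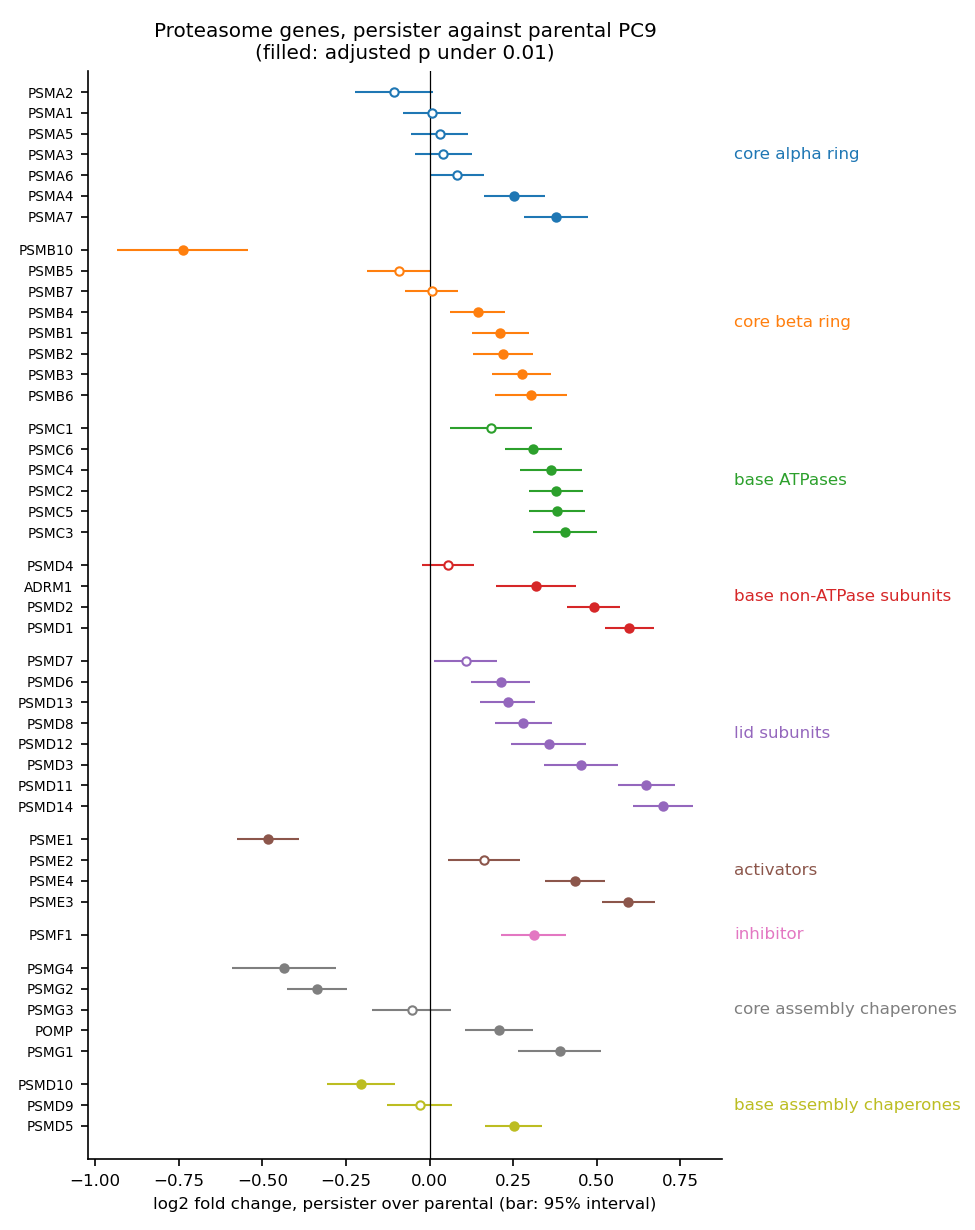
Log2 fold change of each of the 46 tested proteasome genes, PS over PC9, with its 95% interval from edgeR, grouped by role; filled points have an adjusted p under 0.01. All 18 genes chosen for the regulatory particle lie right of 0, from 0.05 for PSMD4 to 0.70 for PSMD14, whereas the core genes lie on both sides of 0 with PSMB10 lowest at -0.74.

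Summed over its genes, the core particle measured 1869.7, 1886 and 1898 CPM in the PC9 libraries and 2037, 2064 and 2099 CPM in the PS libraries. The regulatory particle measured 2331, 2379.8 and 2353 CPM in PC9 and 3035, 3125 and 3118 CPM in PS. Neither sum overlapped between the groups, and the ratio of the group means was 1.097 for the core and 1.31 for the regulatory particle. The activators summed to 492 ± 2.85 CPM in PC9 and 603 ± 6.36 CPM in PS (SD, n = 3), and the 8 assembly chaperones to 403 ± 4.18 and 398 ± 1.22 CPM. The ratio of the regulatory sum to the core sum was 1.25, 1.26 and 1.24 in PC9 and 1.49, 1.51 and 1.49 in PS. Because transcripts differ in length, this ratio is read only as a difference between the groups. The groups were separate, and an exact two-sided permutation test of 3 against 3 libraries cannot go below p = 0.1.

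**Figure D2:**
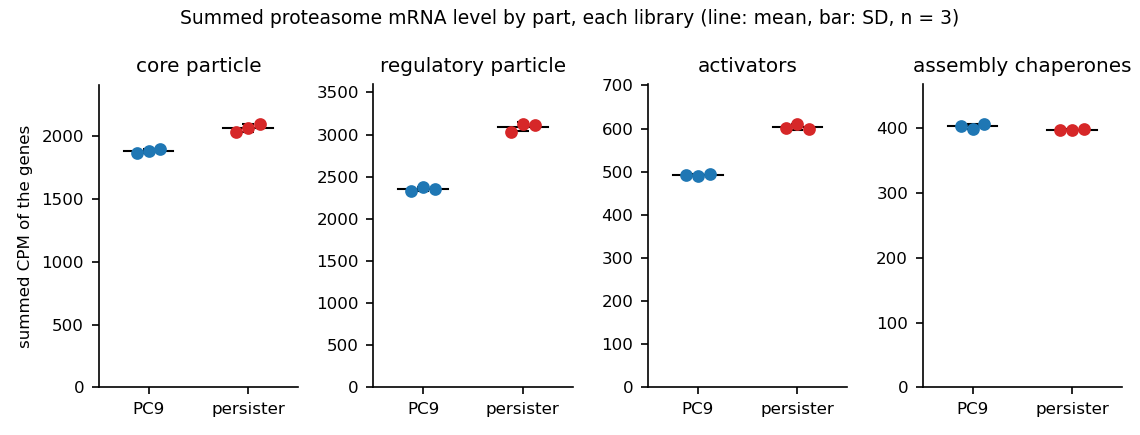
Summed CPM of the core particle, the regulatory particle, the activators and the assembly chaperones in each library; points are libraries, lines are group means and bars are SD (n = 3), and each vertical axis starts at 0. The PS points lie above the PC9 points in the first 3 panels, by a ratio of means of 1.31 for the regulatory particle and 1.097 for the core, while the chaperone means are 403 and 398 CPM.

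The lid of the regulatory particle removes ubiquitin chains from the substrate. Of its 8 genes chosen by symbol 7 rose and 0 fell, and with SEM1 added 7 of 9 were higher and 1 was lower. Among all genes tested 28.7% were called higher and 28.1% lower. PSMD14, the deubiquitinase of the lid (ENSG00000115233, GRCh38 chr2:161308420-161411720, plus strand), measured 63.1, 61.2 and 60.2 CPM in PC9 and 102, 99.98 and 97.3 CPM in PS. It was 1.62-fold higher in PS, the largest rise among the 48 genes, with a log2 fold change of 0.70 ± 0.040 (SE) and an edgeR adjusted p = 7.44e-08. PSMD11 (ENSG00000108671, chr17:32444379-32483319), which holds lid, base and core together, measured 144, 153 and 151 CPM in PC9 and 228, 235 and 239 CPM in PS. The lowest PS library stood well above the highest PC9 library in both genes, and PSMD11 rose by 0.65 ± 0.039 on the log2 scale (SE, edgeR adjusted p = 1e-07). Groups that did not overlap were found for 71.3% of all genes tested. The scaffold subunits PSMD3, PSMD12, PSMD8, PSMD13 and PSMD6 rose by 0.45, 0.36, 0.28, 0.23 and 0.21 on the log2 scale, in this order. PSMD7, the inactive partner of PSMD14, was the lid gene that was not called, with 139.9, 129.6 and 137 CPM in PC9, 143, 151 and 143 CPM in PS and a log2 fold change of 0.11 ± 0.042 (SE, edgeR adjusted p = 0.0428). PSMD14 and PSMD7 had 95% intervals of 0.61 to 0.79 and 0.014 to 0.20 that do not overlap.

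The base holds 6 ATPases, which unfold the substrate, and 4 further subunits, which are scaffolds and ubiquitin receptors. Of the ATPases 5 rose within a narrow band, PSMC6 by 0.31, PSMC4 by 0.36, PSMC2 by 0.38, PSMC5 by 0.38 and PSMC3 by 0.40 on the log2 scale. The share called higher among all genes tested was 28.7%. PSMC3 (ENSG00000165916, chr11:47418769-47426473, minus strand) measured 142, 149 and 142 CPM in PC9 and 183, 189.7 and 200.4 CPM in PS, with an SE of the log2 fold change of 0.043 and an edgeR adjusted p = 9.89e-06. PSMC2 had the smallest p of the ring, with 123, 119 and 121 CPM in PC9 and 153, 160.2 and 158 CPM in PS (edgeR adjusted p = 4.28e-06). The libraries were tight in both genes and the groups lay apart, as they did for 71.3% of all genes tested. PSMC1 was not called, with 55.03, 49.5 and 48.3 CPM in PC9, 55.8, 59.8 and 58.1 CPM in PS and a log2 fold change of 0.18 ± 0.055 (SE, edgeR adjusted p = 0.0122). Its PC9 replicate 1 was the highest of that group, and without it the edgeR adjusted p was 0.000461. A pseudogene named after PSMC1, PSMC1P1, carried 122 to 318 counts in PC9 and 254 to 337 in PS, so that some reads of PSMC1 and this pseudogene could have been split between them.

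PSMD1 (ENSG00000173692, chr2:231056840-231173120), the large scaffold of the base, rose most among its non-ATPase genes, from 151, 155 and 153 CPM in PC9 to 233, 229.9 and 232 CPM in PS. The SD was 1.58 CPM in PC9 and 1.51 CPM in PS, and the log2 fold change was 0.60 ± 0.033 (SE, edgeR adjusted p = 5.54e-08). PSMD2, the scaffold that also binds ubiquitin carriers, measured 457, 486 and 481 CPM in PC9 and 657, 667 and 678 CPM in PS, a rise of 0.49 on the log2 scale. Of the ubiquitin receptors ADRM1 and PSMD4, ADRM1 was called and PSMD4 was not, and the difference between them was not tested. ADRM1, the receptor that also docks the deubiquitinase UCHL5, measured 125, 145 and 134 CPM in PC9 and 161, 173 and 169.9 CPM in PS and rose by 0.32 ± 0.054 (SE, edgeR adjusted p = 0.000332). PSMD4 measured 134, 132 and 131 CPM in PC9 and 137, 136 and 139.9 CPM in PS. Its libraries did not overlap, but the log2 fold change of 0.054 had a 95% interval of -0.024 to 0.13 and was not called (edgeR adjusted p = 0.193).

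The promoters of these genes were read from RefSeq (GRCh38.p14), which gave a window for 42 of the 48 genes, all but PSMA7, PSMB1, PSMB6, PSMB7, PSMD4 and PSMG3. NRF1 and its relatives bind antioxidant response elements. The letters TGACNNNGC of such an element were searched on both strands in the 250 bases before the first listed start. They occurred in 11 of 42 members (26.2%) and in 10.9% of 35116 promoters. The 35116 promoters were all listed windows, not reduced to 1 per gene as the members were and not limited to tested genes. These shares therefore rest on unlike sets, as do those of the other letters searched below. The match fell on 3 of 17 promoters of the regulatory particle, 1 of 13 of the core, 3 of 4 of the activators and 4 of 7 of the assembly chaperones. The 29 bases around the match in the regulatory particle genes are shown 5′ to 3′ on the gene's own strand, with the match in capitals, because these genes rose together. ADRM1 lies at chr20:62302749-62302777 on the plus strand, PSMD3 at chr17:39980760-39980788 on the plus strand and PSMD12 at chr17:67366724-67366752 on the minus strand. PSMB3, the core gene with the match, lies at chr17:38752627-38752655 on the plus strand.
ADRM1: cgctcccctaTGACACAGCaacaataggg
PSMD3: tcccctttgtTGACTCGGCcatcggcctg
PSMD12: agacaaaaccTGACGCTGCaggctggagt
PSMB3: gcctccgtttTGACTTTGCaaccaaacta
These 4 genes rose in PS, but of all 11 members with the match 7 were higher, 2 were lower (PSME1 and PSMG2) and 2 were not called (PSME2 and PSMD9). Across all 46 tested members, with or without a match, 28 were higher and 5 were lower. The shares of all genes tested were 28.7% higher and 28.1% lower. Most other genes of the regulatory particle also rose with no match in their windows, and a match describes letters and not a bound site. The CCAAT letters of a common promoter box occurred in 9 of 17 promoters of the regulatory particle, 6 of 13 of the core and 32.0% of all promoters.

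In the alpha ring of the core particle 2 of 7 tested genes rose, close to the 28.7% of all genes, PSMA7 by 0.38 ± 0.044 and PSMA4 by 0.25 ± 0.041 on the log2 scale (SE). PSMA7 (ENSG00000101182, chr20:62136733-62143440) measured 136, 141 and 143 CPM in PC9 and 183, 172 and 190.1 CPM in PS (edgeR adjusted p = 1.9e-05). The other 5 genes, PSMA1, PSMA2, PSMA3, PSMA5 and PSMA6, had log2 fold changes from -0.11 to 0.083, and none was called. PSMA2 had the lowest value, with 112, 125 and 128 CPM in PC9 and 117, 108 and 115 CPM in PS, and its groups overlapped (edgeR adjusted p = 0.0934). Without PC9 replicate 1, the lowest of its group, PSMA2 was lower in PS at an edgeR adjusted p of 0.00515. For PSMA1, PSMA3 and PSMA5 the sign of the change turned under upper-quartile scaling and with library size only, which moved the median of all genes to -0.049 and -0.059, so that no direction is given.

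The beta ring carries the 3 catalytic subunits of the standard proteasome, and of these PSMB6 alone was called; the differences between them were not tested. PSMB6, which cuts after acidic residues, measured 114, 126 and 125 CPM in PC9 and 146, 148 and 157 CPM in PS and rose by 0.30 ± 0.048 (SE, edgeR adjusted p = 0.00021). PSMB5, the chymotrypsin-like subunit, measured 78.2, 85.1 and 83.9 CPM in PC9 and 76.8, 78.6 and 76.5 CPM in PS. The groups overlapped, and its log2 fold change of -0.092 had a 95% interval of -0.19 to 0.0041 and was not called (edgeR adjusted p = 0.082). PSMB7, the trypsin-like subunit, measured 211, 212 and 211 CPM in PC9 and 205, 215 and 218 CPM in PS, with a 95% interval of the log2 fold change of -0.074 to 0.085 (edgeR adjusted p = 0.898). The PC9 libraries of PSMB7 fell inside the range of the PS libraries. Among the structural subunits PSMB1, PSMB2, PSMB3 and PSMB4 rose by 0.21, 0.22, 0.27 and 0.14 on the log2 scale. The smallest of these, PSMB4, had an edgeR adjusted p = 0.00526, and it was 0.0105, 0.0327, 0.0255 and 0.0286 without PC9 replicate 1, PC9 replicate 3, PS replicate 2 and PS replicate 3. For PSMB4 it was 0.0332 with upper-quartile scaling and 0.0502 with library size only.

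PSMB10, the subunit that takes the place of PSMB7 in the immunoproteasome, was the core gene that fell. It (ENSG00000205220, chr16:67934506-67936864, minus strand) measured 20.7, 26.5 and 21.9 CPM in PC9 and 13.7, 13.9 and 13.8 CPM in PS. All 3 PS libraries lay close together below the lowest PC9 library, and PC9 replicate 2 was the highest. The gene was 1.67-fold lower in PS, with a log2 fold change of -0.74 ± 0.089 (SE, edgeR adjusted p = 2.47e-05). PSMB10 was the rarer of the 2 alternatives in both groups. Per length, it measured 23.8 ± 3.22 CPM per kb of transcript in PC9 and 14.4 ± 0.333 in PS, against 217 ± 0.188 and 217 ± 7.29 for PSMB7 (SD, n = 3).

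Interferons raise PSMB10, PSME1 and PSME2 through elements that interferon regulatory factors and their partners bind. The core letters GAAANNGAA of such an element, searched in the same windows on both strands, occurred in 6 of 42 members (14.3%) and in 6.88% of all promoters, in 0 of 17 promoters of the regulatory particle, 3 of 13 of the core, 1 of 4 of the activators and 2 of 7 of the assembly chaperones. The 3 members that share the longer run below are shown, with the core letters in capitals. PSMB10 lies at chr16:67936853-67936881 on the minus strand, PSME2 at chr14:24146620-24146648 on the minus strand and PSMG4 at chr6:3258904-3258932 on the plus strand.
PSMB10: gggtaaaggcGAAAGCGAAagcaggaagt
PSME2: cctggggagtGAAAGCGAAagcccgggcg
PSMG4: ttccggggccGAAAGCGAAagcgcgctcg
PSMB10 and PSMG4 were lower in PS and PSME2 was not called, while the other 3 members with the match, POMP, PSMA4 and PSMB4, were higher. Across all 46 tested members 28 were higher and 5 were lower, beside 28.7% and 28.1% of all genes tested. PSME1, which fell, held no match in its window. A match is not evidence of a bound site, and a window without a match says nothing of the factor.

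The activators are caps that open the core without ATP, and all 4 of their genes had groups that did not overlap, as did 71.3% of all genes tested. PSME1 and PSME2 encode the subunits of the cap that is linked to antigen processing. PSME1 (ENSG00000092010, chr14:24136163-24138967) measured 122, 117 and 118 CPM in PC9 and 83.1, 88.7 and 83.2 CPM in PS and was 1.40-fold lower in PS, with a log2 fold change of -0.48 ± 0.042 (SE, edgeR adjusted p = 1.83e-06). PSME2 (ENSG00000100911, chr14:24143362-24147570) measured 54.3, 60.3 and 58.04 CPM in PC9 and 62.4, 65.9 and 64.8 CPM in PS. Its log2 fold change of 0.16 ± 0.049 (SE) was not called (edgeR adjusted p = 0.0123), and without PC9 replicate 2 it was called higher at an edgeR adjusted p of 0.00339. The 2 partner genes, which lie close to each other on chromosome 14, thus had intervals that lay apart, -0.58 to -0.39 for PSME1 and 0.054 to 0.27 for PSME2. The ratio of PSME1 to PSME2 on CPM was 2.25, 1.93 and 2.03 in PC9 and 1.33, 1.35 and 1.28 in PS, so that it was lower in every PS library; it is not corrected for length and is read only as a difference between the groups.

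PSME3, the cap of the nuclear proteasome, rose from 173, 175 and 175 CPM in PC9 to 256, 271 and 262 CPM in PS. It was 1.51-fold higher, with a log2 fold change of 0.59 ± 0.036 (SE, edgeR adjusted p = 1.05e-07). PSME4, the large cap that acts on acetylated histones, measured 143, 138 and 144 CPM in PC9 and 199, 185 and 189 CPM in PS and rose by 0.43 ± 0.040 (SE, edgeR adjusted p = 3.08e-06). In both genes every PS library exceeded every PC9 library. The ratio of PSME3 to PSME1 on CPM was 1.41, 1.497 and 1.492 in PC9 and 3.08, 3.05 and 3.15 in PS. PSMF1, a protein first described as an inhibitor of the core, measured 117, 112 and 111 CPM in PC9 and 134, 147 and 140.5 CPM in PS and was higher in PS by 0.31 ± 0.044 (SE, edgeR adjusted p = 9.09e-05).

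**Figure D3:**
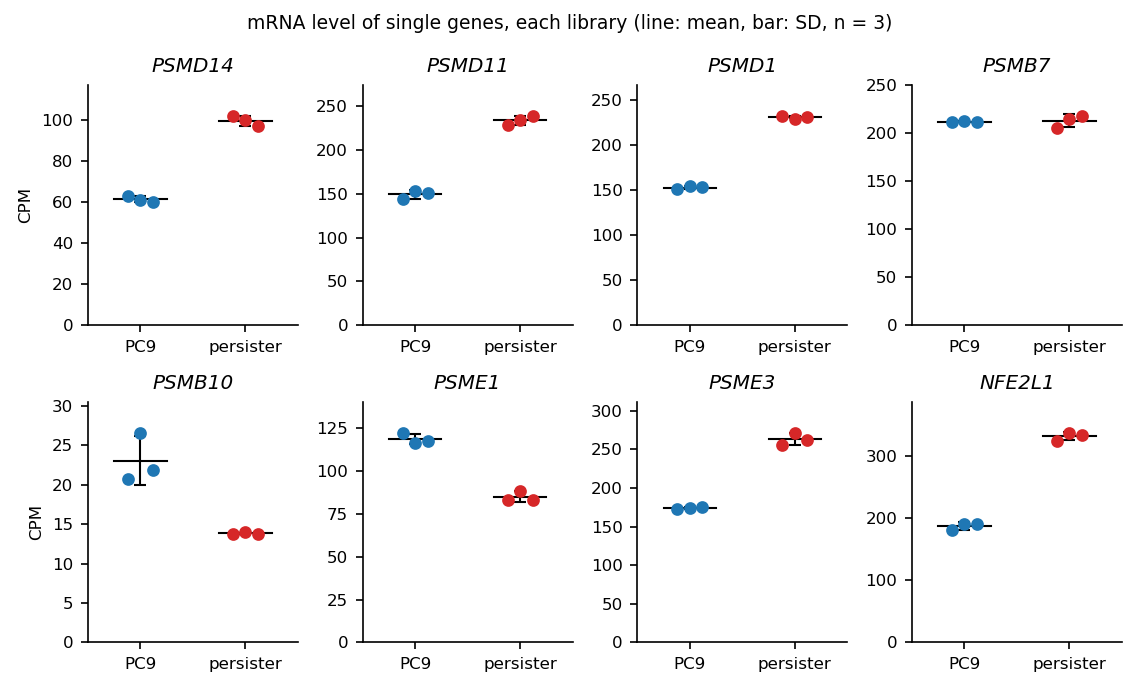
CPM of PSMD14, PSMD11, PSMD1, PSMB7, PSMB10, PSME1, PSME3 and NFE2L1 in each library; points are libraries, lines are group means and bars are SD (n = 3), and each vertical axis starts at 0. PC9 and PS points are apart in every panel except PSMB7, where the PC9 libraries at 211 to 212 CPM fall inside the PS range of 205 to 218 CPM.

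The assembly chaperones moved in both directions, with 3 of 8 higher, 3 lower and 2 not called, which is near the shares of all genes (28.7% higher and 28.1% lower). The chaperones of the alpha ring work as pairs, PSMG1 with PSMG2 and PSMG3 with PSMG4. PSMG1 measured 17.1, 16.5 and 17.5 CPM in PC9 and 23.3, 21.9 and 21.7 CPM in PS and rose by 0.39 ± 0.056 (SE, edgeR adjusted p = 9.88e-05). Its partner PSMG2 measured 63.1, 63.3 and 60.4 CPM in PC9 and 49.8, 48.7 and 49.3 CPM in PS and was lower in PS, with a log2 fold change of -0.34 ± 0.041 (SE, edgeR adjusted p = 2.68e-05). The partners PSMG1 and PSMG2 were therefore called in opposite directions. PSMG4 measured 17.9, 20.5 and 18.9 CPM in PC9 and 15.004, 13.7 and 13.7 CPM in PS, a log2 fold change of -0.44 ± 0.070 (SE, edgeR adjusted p = 0.000225), while PSMG3 was not called at -0.053.

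POMP, which guides the beta subunits into place, measured 43.7, 44.04 and 46.8 CPM in PC9 and 50.2, 52.7 and 52.3 CPM in PS and rose by 0.21 ± 0.046 (SE, edgeR adjusted p = 0.00199). Its edgeR adjusted p was 0.0124 without PS replicate 2, 0.0126 without PS replicate 3 and 0.0113 with library size only. The base chaperones bind the ATPases before they meet the core. PSMD5 rose from 84.7, 80.5 and 84.1 CPM in PC9 to 99.03, 99.9 and 97.8 CPM in PS (edgeR adjusted p = 0.000154), PSMD9 was not called at -0.029, and PSMD10 was lower, with 98.3, 90.3 and 99.6 CPM in PC9 and 84.2, 81.6 and 84.2 CPM in PS (edgeR adjusted p = 0.00208). The groups of PSMD10 did not overlap, but its edgeR adjusted p was 0.0149 without PC9 replicate 3 and 0.0143 without PS replicate 2. The pseudogene PSMD10P2 held 44 to 56 counts in PC9 and 12 to 23 in PS. Of 32 symbols of proteasome pseudogenes listed, 28 were at 0 in every library and only PSMC1P1 and PSMD10P2 passed the filter.

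Compared per length, as CPM per kb of transcript, the median gene of the core stood above that of the regulatory particle. This median over the tested genes was 103 in PC9 and 119 in PS for the core and 57.0 and 75.1 for the regulatory particle. PSMB7 had the highest level in PC9 at 217 ± 0.188 CPM per kb and measured 217 ± 7.29 in PS (SD, n = 3). PSMD2 came next in PC9 at 172 ± 4.63 and stood highest in PS at 246 ± 3.56 CPM per kb. PSMA4, PSMB4, PSMD8, PSMB6 and PSMA7 followed in PC9 between 145 and 164 CPM per kb. In this order the libraries of neighbours overlapped, except between PSMB7 and PSMD2 and between PSMB4 and PSMD8. PSMD14, which rose most, was a low member of the lid at 39.3 ± 0.889 CPM per kb in PC9 and 63.7 ± 1.48 in PS. The lowest levels in PC9 belonged to PSMG1 at 20.5 ± 0.876, PSME4 at 21.4 ± 0.958 and PSMB10 at 23.8 ± 3.22 CPM per kb, each overlapping the next, and in PS PSMB10 was lowest at 14.4 ± 0.333. The gene counts of PSMC4, PSME1 and PSME2 sum equal counts of a matched and an unmatched transcript, and these levels rest on that sum.

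**Figure D4:**
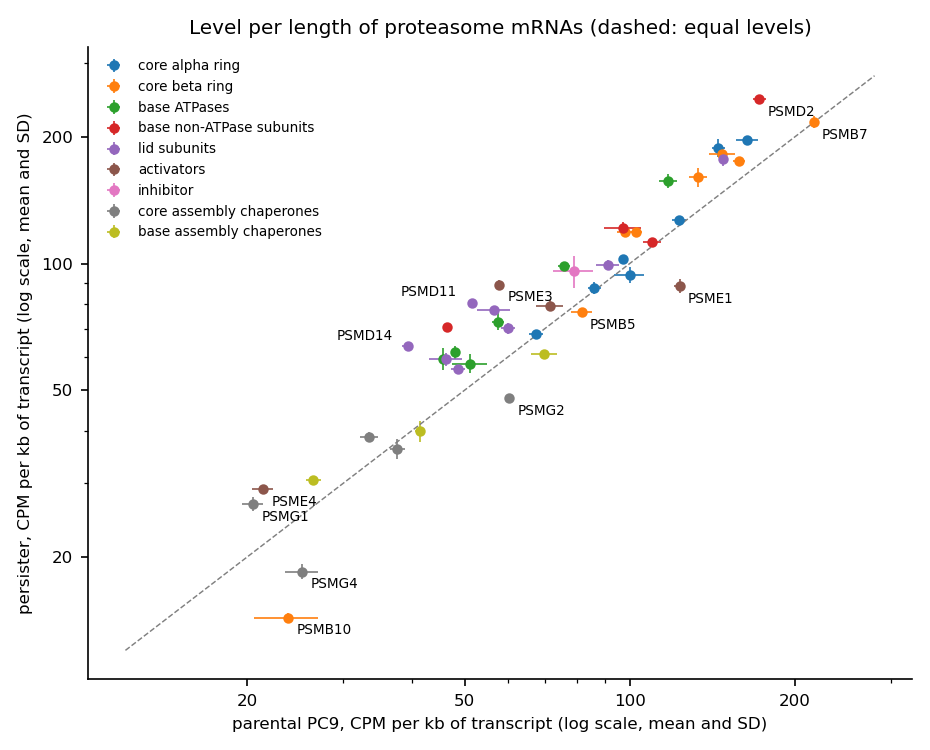
Mean level of each tested proteasome gene in CPM per kb of transcript, PC9 on the horizontal and PS on the vertical axis, both log scales, with SD bars (n = 3) and colours by role; the dashed line marks equal levels. PSMD2, PSMD11, PSMD14 and PSME3 lie above the line, PSMB7 lies on it, and PSME1, PSMG2, PSMG4 and PSMB10 lie below it.

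Transcripts were tested with the same design. Of 439 listed transcripts of the 48 genes 201 passed the filter, 14 were higher in PS and 2 were lower, beside 3.89% of 54499 tested transcripts called higher and 3.91% called lower. The 14 belonged to 13 genes, among them PSMD14-201 at a log2 fold change of 0.67, PSMD1-201 at 0.53, PSMD11-201 at 0.64, PSMD11-202 at 0.59 and PSMC3-211 at 1.24. The 2 lower transcripts were PSMB10-201 at -0.83 and PSME1-201 at -0.58, the main coding transcript of each gene. No gene had transcripts called in both directions. The count of higher transcripts was 2 to 8 when any 1 library was left out and the fewest were called without PS replicate 3. With the replicate number as a block 1 of the transcripts was called higher and 0 were called lower, so that both lower calls were lost.

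The share of transcripts within a gene was called different for 1 of 45 members tested, beside 1.88% of 10542 genes. This was PSMA4 (edgeR diffSpliceDGE, Simes adjusted p = 0.00172). Its 2 most abundant transcripts were PSMA4-209, which took 64.6% ± 1.32 of the gene's counts in PC9 and 60.1% ± 2.84 in PS (SD, n = 3), and PSMA4-203, which took 14.97% ± 0.746 and 17.4% ± 2.06. The shares of these transcripts had unadjusted edgeR p-values of 0.453 and 0.288. PSMA4-218, an RNA with a retained intron that was picked out after its values were seen, had 0, 2 and 0 counts in PC9 and 38, 53 and 45 in PS, or 0.774% of the gene in PS. The call for PSMA4 was kept without PC9 replicate 2 and lost without each of the other 5 libraries, with a PSMA4 usage adjusted p of 0.0504 without PC9 replicate 1, 0.0637 without PC9 replicate 3, and 0.0111, 0.0221 and 0.0145 without PS replicates 1, 2 and 3.

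Other genes of the pathway were counted from lists, beside 28.7% of all tested genes called higher and 28.1% called lower. Of the NRF1 axis, meaning NFE2L1, its relatives NFE2L2 and NFE2L3, the enzymes that activate NRF1 and its small MAF partners, 5 of 8 tested genes were higher and 1 was lower. NFE2L1 rose from 180.0, 191 and 189.5 CPM in PC9 to 323, 336 and 333 CPM in PS, a 1.77-fold difference with a log2 fold change of 0.83 ± 0.037 (SE, edgeR adjusted p = 1.12e-08). DDI2, the protease that cleaves NRF1, measured 82.2, 75.1 and 81.4 CPM in PC9 and 84.7, 74.8 and 79.8 CPM in PS, with a 95% interval of the log2 fold change of -0.12 to 0.12. Its groups overlapped and it was not called. Of the MAF partners MAFK rose from 35.1, 45.98 and 39.8 to 66.3, 67.2 and 68.8 CPM and MAFF fell from 30.2, 40.1 and 39.9 to 13.2, 12.7 and 14.6 CPM (edgeR adjusted p = 9.27e-06 and 5.84e-07). NGLY1, MAFG and NFE2L3 rose by 0.18 to 0.23 on the log2 scale, NFE2L2 was not called, and DDI1 was at 0.

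Of 10 factors that bind the proteasome 5 were higher and 3 were lower, beside 28.7% and 28.1% of all genes tested. The count lower was thus near the share of all genes. USP14, a deubiquitinase bound to the base, measured 165, 164 and 164 CPM in PC9 and 215, 211 and 212 CPM in PS (edgeR adjusted p = 2.42e-06). UBE3C, a ligase that extends chains on stalled substrates, and ECPAS, an adaptor of the assembled enzyme, rose by 0.35 and 0.32 on the log2 scale. UCHL5, the partner of ADRM1, rose by 0.23 ± 0.055 (SE, edgeR adjusted p = 0.00347), and its edgeR adjusted p was 0.0216, 0.0135 and 0.0160 without PC9 replicate 3, PS replicate 1 and PS replicate 2, 0.0131 with upper-quartile scaling and 0.0128 with library size only. SEM1, a small lid subunit outside the naming rule, was lower in PS, with 124, 112 and 117 CPM in PC9 and 92.8, 100.1 and 99.3 CPM in PS (edgeR adjusted p = 0.000453). The 8 lid genes described above all had log2 fold changes above 0.

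Of 11 genes for ubiquitin, its activating enzymes and the carriers to the proteasome 3 rose and 1 fell. Among all genes tested 28.7% were called higher and 28.1% lower, so the 3 rises were near the share of all genes. The polyubiquitin gene UBB measured 664, 641 and 644 CPM in PC9 and 630.4, 668 and 668 CPM in PS, and it was not called. The carriers RAD23B and UBQLN1 rose by 0.30 and 0.28, and RPS27A, which encodes ubiquitin fused to a ribosomal protein, fell by 0.56 on the log2 scale. All 11 genes of the segregase VCP and its cofactors were called, 8 higher and 3 lower, the lower ones near the share of all genes. VCP measured 222, 251 and 236 CPM in PC9 and 307, 306 and 315 CPM in PS (edgeR adjusted p = 1.91e-05), and its cofactors NPLOC4 and FAF2 rose by 0.47 and 0.34.

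Among the interferon-linked factors IRF9, STAT2, IRF2 and IRF1 fell, with log2 fold changes of -1.22, -0.90, -0.60 and -0.41, and NLRC5 was not called. IRF9 measured 12.9, 11.9 and 12.6 CPM in PC9 and 5.93, 4.67 and 5.50 CPM in PS, and STAT2 39.02, 40.96 and 41.8 and 21.3, 22.2 and 21.8 CPM. These values moved with those of PSMB10 and PSME1, and their part in the lower levels of these 2 genes was not tested. Likewise NFE2L1 moved with the regulatory particle, and its part was not tested.

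The COP9 signalosome, whose subunits resemble those of the lid, and the chaperonin CCT were set beside it as other complexes of many subunits. In the signalosome 3 of 10 genes were higher and 1 was lower, with a median log2 fold change of -0.057, and COPS3, COPS8 and GPS1 rose by 0.40, 0.29 and 0.28. In CCT 3 of 8 were higher and 2 were lower, with a median of 0.083. CCT5, CCT4 and CCT2 had log2 fold changes of 0.33, -0.28 and 0.31. Of all genes tested 28.7% were called higher and 28.1% lower. The counts higher in both complexes and the count lower in CCT were near these shares. The lid had 7 of 8 genes higher and a median of 0.32, or, with SEM1, 7 of 9 higher, 1 lower and a median of 0.28. The difference between the complexes was not tested and these counts are a description.

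**Figure D5:**
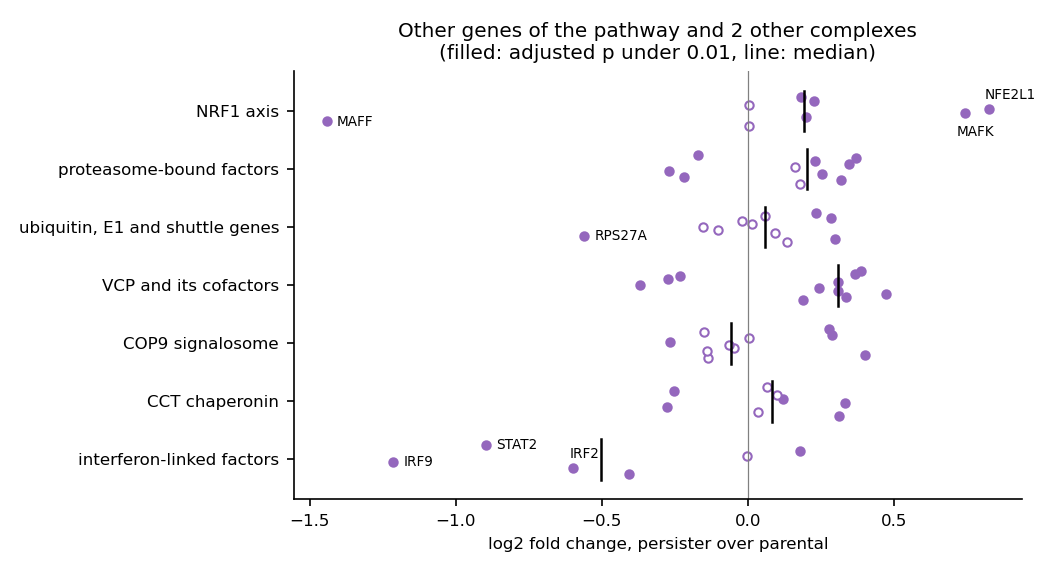
Log2 fold change, PS over PC9, of each tested gene in the lists around the proteasome and in the COP9 signalosome and CCT; filled points have an adjusted p under 0.01 and the black line is the list's median. The median is 0.31 for VCP and its cofactors, 0.083 for CCT and -0.057 for the COP9 signalosome, with NFE2L1 and MAFK the highest single genes and MAFF the lowest.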

How the data were processed

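Poly-A libraries of 3 PC9 and 3 PS samples were read as 75 bp pairs. The authors quantified them with Kallisto 0.46.1 against Ensembl 96 (GRCh38.p13) and deposited their estimated counts, rounded to integers, in 1 file of genes and 1 of transcripts, which were used as deposited. All columns were mapped (0 left over).

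Counts were scaled by TMM, filtered with filterByExpr (minimum count 10) and tested by edgeR 4.0.16 (glmQLFit and glmQLFTest, group only), with Benjamini-Hochberg adjustment over all genes or transcripts tested and a limit of 0.01. Usage was tested with diffSpliceDGE. Scripts were tested on simulated data first. CPM used TMM-scaled library sizes, and CPM per kb divided them by the count-weighted transcript length. Gene positions are those of GENCODE 44, and promoter positions are those of the RefSeq windows (GRCh38.p14). The first start listed by RefSeq can differ from the GENCODE gene start. The windows shown for ADRM1, PSME2 and PSMG4 thus lie inside the GENCODE span of the gene. Gene counts of PSMC4, PSME1 and PSME2 were 2.00 times the sum of their matched transcripts, and those of PSMB3 1.24 times, so gene values rest on the gene table. For PSMC4, PSME1 and PSME2 each matched transcript with at least 500 counts had an unmatched transcript with the same counts (within 2 in every library), and gene and transcript totals were equal within rounding, so the gene count sums 2 copies between which reads were split and is not a double count.

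Values in every library are given for the catalytic subunits, PSMB10, PSMD14, the ubiquitin receptors, activators, PSMF1, POMP and the largest rise, largest fall and smallest p of each class, and values of other lists for preset genes and up to 3 with the smallest p; some genes of these lists are not reported here. PSMD2, PSMD11 and the least changed PSMC1 and PSMD7 were added after their values were seen. Members and lists were chosen with earlier results of these data known. Libraries of a group differed beyond sampling noise (chi-square per degree of freedom 3.53 to 21.4); p-values measure the spread between these libraries. Alternatives were DESeq2 1.42.0, limma-voom 3.58.1, other scalings, other filters, genes rebuilt from their transcripts, a limit of 0.05, a replicate block and leaving out each library.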

Additional observations from a re-analysis of the deposited data

How the results depend on the processing

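Each gene was refitted under 16 alternatives. Of 33 called members 30 stayed past the limit in all of them and 0 changed sign; PSMB4, POMP and PSMD10 lost the call in some. Over all alternatives the members called higher ranged from 26 to 31 and those lower from 4 to 6, and the regulatory particle kept 15 to 17 higher and 0 lower. The medians of the core and the regulatory particle were 0.040 and 0.32 with upper-quartile scaling and 0.030 and 0.31 with library size only. They lay 0.089 and 0.37 above the median of all genes in each, as in edgeR with TMM. A change of scaling shifts all genes by about the same amount, so these gaps had to stay and are no separate support. With upper-quartile scaling the log2 fold changes turned to -0.036 for PSMA1, -0.0022 for PSMA3, -0.013 for PSMA5, -0.037 for PSMB7, -0.040 for DDI2, -0.030 for UBB and -0.041 for NFE2L2. With library size only they were -0.046, -0.012, -0.023, -0.048, -0.049, -0.041 and -0.051, in the same order. With a CPM above 1 in 3 libraries DDI2 was -0.00029 and NFE2L2 -0.0016. None of these genes was called under edgeR. Upper-quartile scaling and library size only moved the median of all genes from -0.0061 to -0.049 and -0.059, a shift of about the same size. With SEM1 added, an alternative chosen after seeing the data, the regulatory particle had 1 lower gene.

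When 1 library was left out, the log2 fold change ranged from -0.018 to 0.029 for PSMA1, -0.013 to 0.034 for PSMB7, -0.039 to 0.049 for DDI2, -0.014 to 0.022 for NFE2L2 and -0.0019 to 0.043 for UBB. The core genes called lower numbered 1 to 2, with PSMA2 added without PC9 replicate 1. Member transcripts called higher numbered 2 to 8 and lower 1 to 2, and members called for usage 0 to 1. PSMC1P1 was called higher without PC9 replicate 3 (adjusted p = 2.6e-05), its highest PC9 library.

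No pairing by replicate number was evident. Same-numbered libraries had correlations of their deviations of 0.12, 0.024 and 0.022, of which not all exceeded 0.1. Libraries with unlike numbers had values from -0.12 to 0.097. Such weak correlations cannot exclude a pairing, and the labels do not settle it. With a replicate block 1 member transcript was called higher, 0 were called lower and 0 members were called for usage, while 30 genes were called higher and 5 lower, and PSME2 (adjusted p = 0.00377) and PSMC1 (0.00906) were called; the cause was not tested. With a minimum transcript count of 50, 0 members were called for usage. PSMC1 was also called by DESeq2 (0.00755). The 46 tested members had at least 401 counts in every library; among the other genes named, IRF9 fell to 147 counts and PSMC1P1 to 122.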
